A study of Solanum lycopersicum with 9 samples.

Results

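The class III homeodomain-leucine zipper (HD-ZIP III) genes of the tomato shoot apex were described over 9 CEL-Seq libraries. The members were chosen by gene ID, as the 6 class III genes listed for tomato, and all 6 had a row among the 34866 genes of the normalized count table. Solyc11g069470 is listed as REVOLUTA. The other 5 are listed as PHB/PHV, HB8 and HB15 type genes, and which ID is of which type is not given in the sources used here, so they are called by their IDs. All libraries came from seedlings of the line M82 SP+, 12 to 14 days old and grown with 11 h of light and 13 h of darkness, without any treatment or transgene. Laser microdissection gave 3 zones with 3 libraries each, numbered 1 to 3: the central zone (CZ) of the shoot apical meristem, where plastids are proplastids and chlorophyll is absent; the peripheral zone (PZ), with partly developed thylakoids; and the leaf primordium (LP), with well developed thylakoids. Each library was a biological replicate of 3 pooled cryosections of 10 µm. Chlorophyll fluorescence, and no meristem or polarity marker, decided where each zone was cut, and LP tissue was cut from the abaxial (lower) side of the primordium only. Which seedlings gave which library is not stated, so zones may share plants.

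HD-ZIP III proteins are transcription factors with a homeodomain, a leucine zipper and a START lipid-binding domain. In Arabidopsis they specify the adaxial (upper) side of leaves, take part in forming the shoot meristem and pattern the vasculature. A conserved microRNA family cleaves their transcripts on the abaxial side, where KANADI and YABBY genes act. The data thus set meristem tissue against the abaxial side of the primordium, the side on which these transcripts are cleaved in Arabidopsis. Whether they are cleaved there in tomato was not tested. The abaxial side and the LP zone as such cannot be told apart in this design.

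No HD-ZIP III gene passed the test between any zones. Mean levels of the 6 members were lower in LP than in CZ. For 4 of the 6 (5 tested) every LP library lay below every CZ library, as it did for 6.58% of all genes tested. REVOLUTA overlapped between all zones, and Solyc08g066500 had 1 read in all. The unit is the authors' normalized count, in which a read was worth 0.288 (CZ1) to 1.09 (LP3). The libraries held 40286 to 144665 reads on genes, of which 462 in all were HD-ZIP III reads (0.0695%). The values of single members therefore rest on few reads, and their counting error is given as an exact Poisson 95% interval; such intervals and floors cover counting error only. CEL-Seq reads mark the 3′ ends of transcripts and were not divided by gene length.

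REVOLUTA (Solyc11g069470.1), which in Arabidopsis is needed for lateral meristems and adaxial fate, lies on chromosome 11 from 54067259 to 54072971 (SL2.50). Its normalized counts were 2.02, 11.34 and 9.36 in CZ1 to CZ3, 3.08, 8.88 and 6.9 in PZ1 to PZ3, and 6.05, 3.62 and 6.55 in LP1 to LP3. The lowest and the highest value both came from the CZ, and the zones overlapped. CZ1 had 7 REVOLUTA reads, with an interval of 0.812 to 4.16, and CZ2 had 17, with an interval of 6.60 to 18.1, so these CZ libraries differed by more than counting error. Within zones the variance of its reads was 4.06 times that of counting (chi-square per degree of freedom, 6 degrees of freedom). The CZ, PZ and LP means were 7.57 ± 4.91, 6.29 ± 2.95 and 5.41 ± 1.57 (SD, n = 3 each).

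Solyc02g024070.2 had the highest mean normalized count of the family, 9.12 over the 9 libraries, and was the highest member in 6 of them, tied with Solyc02g069830.2 in CZ3 and with Solyc03g120910.2 in LP2. It lies on chromosome 2 from 24919618 to 24926118. The values were 10.96, 15.34 and 11.91 in the CZ libraries, 14.65, 5.92 and 4.14 in the PZ libraries, and 5.61, 4.83 and 8.74 in the LP libraries. All CZ libraries lay above all LP libraries, while PZ1 was as high as the CZ and the other PZ libraries were within or below the LP range. Zone means stood at 12.7 ± 2.30 (CZ), 8.24 ± 5.63 (PZ) and 6.39 ± 2.07 (LP), each with SD and n = 3.

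Solyc02g069830.2, on the same chromosome from 39656612 to 39664372, had 4.9, 5.34 and 11.91 in CZ, 2.31, 6.66 and 5.52 in PZ, and 1.73, 1.21 and 4.37 in LP. CZ and LP did not overlap, with CZ3 far above the other CZ libraries and LP3 near the lowest CZ value. LP3 held 4 reads (interval 1.19 to 11.2), and a read there was worth 1.09, more than its gap to CZ1. The LP values stood on 10 reads in all, against 39 in CZ and 20 in PZ. Zone means were 7.38 ± 3.93, 4.83 ± 2.26 and 2.44 ± 1.69 (SD, n = 3 each).

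Solyc03g120910.2, on chromosome 3 from 69142797 to 69149931, had the smallest SD of the tested members in CZ and in LP, but not in PZ. Its normalized counts were 8.65, 8 and 9.36 in CZ, 3.85, 7.4 and 2.07 in PZ, and 5.18, 4.83 and 5.46 in LP. The CZ libraries lay above all others, and the LP libraries lay within the wider PZ range. The variance of its reads within zones, 0.808 times that of counting, was no larger than counting alone gives. The CZ mean was 8.67 ± 0.68, the PZ mean 4.44 ± 2.71 and the LP mean 5.16 ± 0.316 (SD, n = 3 each), so that the lowest mean was that of PZ, though PZ and LP overlapped.

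Solyc12g044410.1, on chromosome 12 from 38525460 to 38533079, had 5.77, 5.34 and 9.36 in CZ, 7.71, 5.18 and 4.83 in PZ, and 0.43, 3.02 and 3.28 in LP. Here the LP libraries lay below those of both meristem zones, which overlapped with each other. The LP values stood on 9 reads in all, against 39 in CZ and 24 in PZ. LP3 held 3 reads, and its interval of 0.676 to 9.58 covers every CZ and PZ value. LP1 held 1 read of this gene (interval 0.0109 to 2.41), although it was the deepest LP library with 97353 reads. Its mean was 6.82 ± 2.21 for the CZ, 5.91 ± 1.57 for the PZ and 2.24 ± 1.58 for the LP (SD, n = 3 each).

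Solyc08g066500.2, on chromosome 8 from 55206172 to 55211887, had a single read, in CZ3 (normalized count 0.85), and 0 in the other 8 libraries. Where no read was seen, a one-sided limit of 3 reads was taken, equal to a normalized count of 0.865 in CZ1 and of 3.28 in LP3. The depth does not show that its transcript was absent, and no fold change is given for it.

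**Figure D1:**
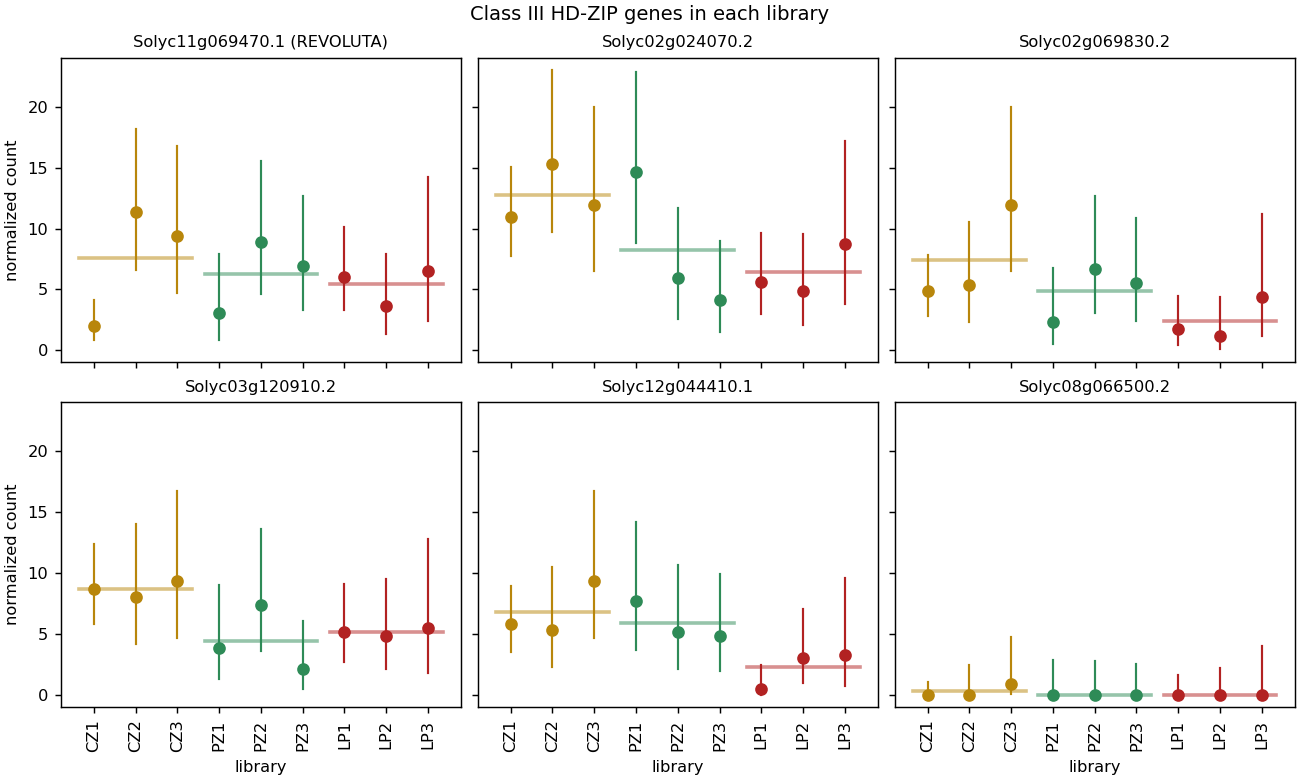
Normalized count (linear axis) of each HD-ZIP III gene in the 9 libraries, with CZ, PZ and LP in 3 colours. Points are libraries, thin vertical lines exact Poisson 95% intervals of their reads and horizontal lines zone means; Solyc12g044410.1 is at 0.43 to 3.28 in LP and at 4.83 or above elsewhere, and REVOLUTA ranges from 2.02 to 11.34 within the CZ alone.

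LP was compared with CZ to ask how the genes change from stem cell tissue to the leaf. The test was limma's, on log2(normalized count + 1), over the 4044 genes for which any library reached a value of 6. Genes were called at 1.5-fold or more with an adjusted p up to 0.05 (Benjamini-Hochberg over all genes tested). Of the 6 members 5 reached this minimum and were tested. REVOLUTA and Solyc02g024070.2 reached it in all zones, and Solyc02g069830.2, Solyc03g120910.2 and Solyc12g044410.1 in CZ and PZ. Of the 5, 0 were called between LP and CZ, where 1.43% of all genes tested were called and 0.247% were called lower in LP. With the p left unadjusted at the same fold, a criterion added later with the values known, 2 were lower in LP; this held for 3.39% of all genes, and for 9.37% in either direction. edgeR and DESeq2 on the recovered reads also called 0.

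The log2 fold change furthest below 0 between LP and CZ was that of Solyc12g044410.1, −1.39 (standard error 0.62, 95% interval −2.61 to −0.18, adjusted p = 0.403 from limma). Its mean in CZ was 3.04 times that in LP. Solyc02g069830.2 followed with −1.30 (interval −2.53 to −0.07, adjusted p = 0.472), with a CZ mean 3.03 times the LP mean. Both intervals lay below 0 before adjustment, and neither gene passed the test over all genes. For Solyc02g024070.2 the log2 fold change was −0.92 (interval −1.90 to 0.06, adjusted p = 0.572) and for Solyc03g120910.2 it was −0.65 (interval −1.76 to 0.46, adjusted p = 0.814). REVOLUTA had −0.22 (interval −1.32 to 0.89, adjusted p = 0.958), an interval that holds changes in both directions. The sign for REVOLUTA rested on single libraries, with 0.16 without CZ2, 0.04 without CZ3 and 0.00 without LP2.

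All LP libraries lay below all CZ libraries for 4 of the 6 members (5 tested), namely Solyc02g024070.2, Solyc02g069830.2, Solyc03g120910.2 and Solyc12g044410.1, where this was so for 6.58% of all genes tested. All of these except Solyc02g024070.2 passed the filter through CZ and PZ libraries alone, which favours a lower LP, so the pattern is a description. For Solyc02g069830.2 the gap between LP3 and CZ1 was smaller than the worth of 1 read in LP3. Each of these 4 had an exact permutation p of 0.1 (two-sided, mean difference), the smallest that 3 against 3 libraries allow, and REVOLUTA had an exact permutation p of 0.5. No member had all LP libraries above all CZ libraries, which 8.95% of the genes did. The median log2 fold change of the 5 tested members was −0.92, beside 0.02 for all genes tested. The same 4 members stood apart with the libraries scaled to equal totals and with TMM scaling.

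Between PZ and CZ, a comparison within the meristem, 0 of the 5 tested members were called, against 0.321% of all genes, 0.0989% being called lower in PZ. With the p unadjusted 0 passed, against 6.36% of all genes and 2.18% lower in PZ; edgeR and DESeq2 called 0 as well. The log2 fold changes ran from −0.95 for Solyc03g120910.2 (interval −2.06 to 0.16, adjusted p = 0.822 from limma) to −0.09 for REVOLUTA (interval −1.20 to 1.01, adjusted p = 0.998). The sign turned for REVOLUTA without CZ2 (0.29), CZ3 (0.16) or PZ1 (0.28), and for Solyc12g044410.1 without CZ3 (0.053). Solyc03g120910.2 was the only member whose PZ libraries all lay below its CZ libraries (exact permutation p = 0.1), which held for 4.23% of all genes, and 0 had all PZ libraries above, which 6.68% did. The LP against CZ and PZ against CZ comparisons share the CZ libraries, so that a high CZ enters both. For Solyc03g120910.2 the CZ mean was 1.95 times that of PZ and 1.68 times that of LP, whereas for Solyc12g044410.1 it was 1.16 and 3.04 times.

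Between LP and PZ 0 of the 5 tested members were called, against 0.148% of all genes and 0.0247% called lower in LP. With the p unadjusted 1 was lower, against 3.39% of all genes, or 7.02% in either direction; edgeR and DESeq2 called 0. This was Solyc12g044410.1, with a log2 fold change of −1.22 (interval −2.44 to −0.01, adjusted p = 0.695 from limma). All its LP libraries lay below all its PZ libraries (exact permutation p = 0.1), as for 5.93% of all genes, and the PZ mean was 2.63 times the LP mean. Without LP1, the library with 1 read of it, the log2 fold change was −0.71 against PZ and −0.88 against CZ. For Solyc02g069830.2 the log2 fold change was −0.78 (interval −2.01 to 0.45), and for Solyc02g024070.2 it was −0.19 (interval −1.17 to 0.79). REVOLUTA had −0.12 (interval −1.23 to 0.98) and Solyc03g120910.2 had 0.30 (interval −0.81 to 1.41). The sign turned for Solyc02g024070.2 without PZ1 (0.27), for Solyc03g120910.2 without PZ3 (−0.05) and for REVOLUTA without PZ2 (0.14) or LP2 (0.10).

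**Figure D2:**
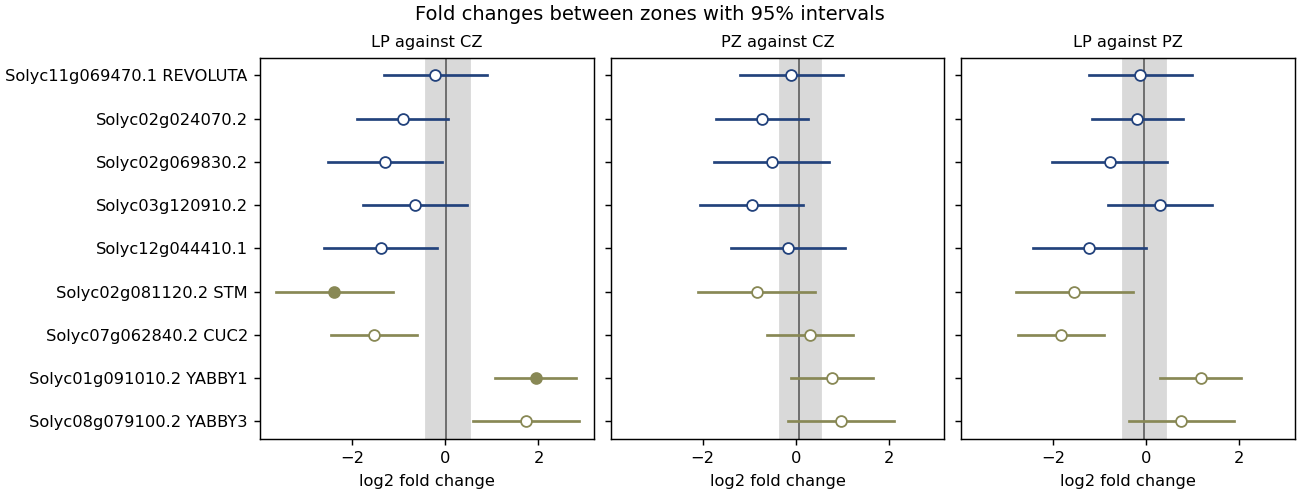
Log2 fold change (limma, scale of log2(normalized count + 1)) with its 95% interval for the 5 tested HD-ZIP III genes and 4 context genes in each comparison. Filled points are called and open points are not, the grey band spans the quartiles of all 4044 genes and the line is their median; the HD-ZIP III points between LP and CZ lie from −1.39 to −0.22, and all are open.

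The summed normalized count of the 6 genes was 32.3, 45.36 and 52.75 in CZ1 to CZ3, 31.6, 34.04 and 23.46 in PZ1 to PZ3, and 19, 17.51 and 28.4 in LP1 to LP3. CZ1, the deepest library, lay within the PZ range and above all LP libraries, and LP3, the shallowest, lay above PZ3. The zone means were 43.5 ± 10.4, 29.7 ± 5.54 and 21.6 ± 5.90 (SD, n = 3 each), and no test is given for a sum over chosen genes. As a share of reads, the family took 0.0926% in CZ (242 reads), 0.0644% in PZ (121 reads) and 0.0458% in LP (99 reads). By library the share was lowest in LP2 at 0.037% (Wilson 95% interval 0.0258% to 0.0531%) and highest in CZ3 at 0.12% (0.0936% to 0.154%).

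As a part of the family, Solyc02g024070.2 gave 29.3%, 27.7% and 29.5% of the summed normalized count in CZ, PZ and LP. The share of REVOLUTA was 17.4%, 21.2% and 25%, but single CZ libraries ranged from 6.25% to 25%. Solyc12g044410.1 gave 15.7% in CZ, 19.9% in PZ and 10.4% in LP, and in LP its libraries ranged from 2.26% to 17.2%. Solyc02g069830.2 gave 17.0%, 16.3% and 11.3%, and Solyc03g120910.2 gave 19.9%, 15.0% and 23.8%. Over all libraries the mean levels of the 5 tested genes exceeded those of 60.0% to 81.7% of the genes tested.

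**Figure D3:**
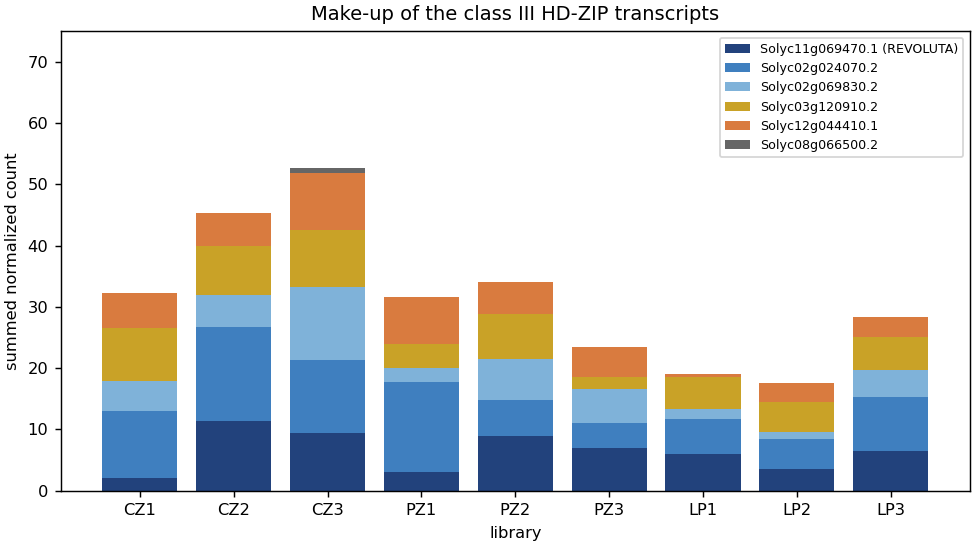
Summed normalized count (linear axis from 0) of the HD-ZIP III genes in each library, stacked by gene. The bars reach 32.3 to 52.75 in CZ, 23.46 to 34.04 in PZ and 17.51 to 28.4 in LP, and the dark lowest segment, REVOLUTA, is thinnest in CZ1 at 2.02.

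Across the 9 libraries the log2 levels of the 5 tested genes were loosely related. Spearman's rho for the 10 pairs ran from 0.133 to 0.733 with a median of 0.492, a description over libraries that share zone, depth and scaling. After the zone means were taken out, Pearson's r ran from −0.24 to 0.631 with a median of 0.175. The highest within-zone value was that of REVOLUTA with Solyc02g069830.2, both of which were lowest of their zone in CZ1, PZ1 and LP2.

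The genes whose log2 level over the 9 libraries was most like that of the summed family were picked as the highest Pearson r among 4039 genes, a choice that selects for high values. Solyc02g081700.1 on chromosome 2 came first (r = 0.976), with CZ, PZ and LP means of 13.6 ± 1.92, 10.8 ± 1.59 and 9.01 ± 2.62 (SD, n = 3 each). Solyc09g011230.2 was next (r = 0.944). The third was SVP (Solyc04g076280.2, r = 0.94), a MADS-box regulator of flowering, whose means were 9.33 ± 2.15, 5.87 ± 0.328 and 3.18 ± 1.11 (SD, n = 3 each). For Solyc02g024070.2, the most abundant member, they were Solyc06g084450.2 (r = 0.946), Solyc02g066930.2 (r = 0.934) and Solyc04g050960.2 (r = 0.908), which like the first genes except SVP have no name in the sources used here. Some of these values rest on very few reads. Solyc06g084450.2 had 0 in PZ3, LP1 and LP2, and Solyc02g066930.2 had 0.69 in PZ3 and 0.6 in LP2. The means of Solyc09g011230.2 were 2.23 in PZ and 1.36 in LP.

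The zones were described with genes named in the study's text, which chose them on these samples. Their direction is therefore no independent check of the zones. Transcripts of STM (Solyc02g081120.2), the KNOX factor that maintains meristem cells, fell from CZ to LP (log2 fold change −2.39, standard error 0.64, adjusted p = 0.0184 from limma), being 9.81, 4.67 and 17.01 in the CZ libraries, 12.34, 1.48 and 4.83 in the PZ libraries and 1.3, 0.6 and 1.09 in the LP libraries. CUC2 (Solyc07g062840.2), an organ boundary factor, had means of 14.4 ± 6.26, 16.8 ± 1.56 and 4.25 ± 2.06 (SD, n = 3 each) and did not pass the test between LP and CZ (adjusted p = 0.0745 from limma). The study lists CUC2 as lower in LP by other criteria, an FDR or an unadjusted p with qPCR. Summed over both meristem markers, the level was 24.7 to 25.4 in CZ, 19.99 to 27.8 in PZ and 3.89 to 7.64 in LP, with neither at 0 in any library. The narrow CZ range hides opposite variation of STM and CUC2, as CUC2 was 15.58, 20.01 and 7.66 in CZ1 to CZ3. The 8 genes listed as green tissue markers (RBCS, LHCB1.3, LHCB2.4, PSBQ, PSBT and FED) summed to 90.9 to 258.1 in CZ, 170.4 to 299.3 in PZ and 338.6 to 482.3 in LP. All 8 had a log2 fold change above 0 between LP and CZ, and 7 were called higher, as were 48 of all 4044 genes tested. Solyc03g005770.1 was not called (log2 fold change 2.04, adjusted p = 0.0884 from limma) and had no read in CZ3. The meristem list was thus lower and the green list higher in LP, where the HD-ZIP III sum was lowest, and their part in that was not tested. In dissected tissue, fewer cells of a type and less RNA per cell cannot be told apart.

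YABBY genes promote abaxial fate. Transcripts of YABBY1 (Solyc01g091010.2) rose from CZ to LP (log2 fold change 1.94, standard error 0.45, adjusted p = 0.00248 from limma), from 14.42, 6.67 and 1.7 in CZ to 17.7, 22.33 and 40.42 in LP, with 6.94, 14.81 and 11.72 in PZ. YABBY3 (Solyc08g079100.2) had a log2 fold change of 1.72 and did not pass the test (adjusted p = 0.129 from limma). The study lists YABBY3 as higher in LP by its own criteria, an FDR or an unadjusted p with qPCR. The YABBY3 values were 3.17, 4 and 0.85 in CZ, 9.25, 8.14 and 2.07 in PZ and 8.64, 18.1 and 6.55 in LP. Both YABBY genes were above the CZ range in every LP library. The study chose both on these samples, so their direction is no independent evidence.

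Within each library, the summed HD-ZIP III count was divided by the sum of both YABBY genes, a ratio that no scaling of the libraries can move. It was 1.84, 4.25 and 20.7 in CZ1 to CZ3, 1.95, 1.48 and 1.70 in PZ1 to PZ3, and 0.721, 0.433 and 0.605 in LP1 to LP3. The HD-ZIP III sum exceeded the YABBY sum in all CZ and PZ libraries and was below it in all LP libraries. The value of CZ3 rests on a YABBY sum of 2.55, and CZ1 lay between PZ1 and PZ3. As the YABBY genes were chosen on these samples, the ratio is given as a description with no test.

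**Figure D4:**
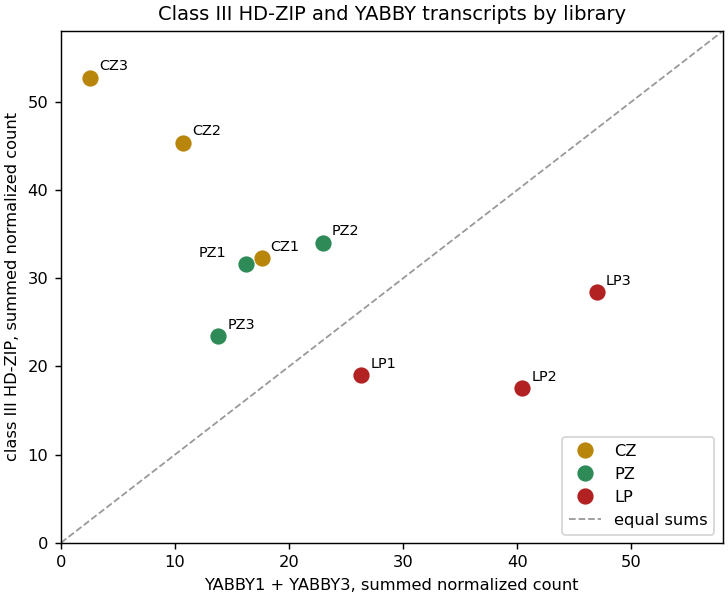
Summed normalized count of the 6 HD-ZIP III genes (vertical axis) against that of YABBY1 and YABBY3 (horizontal axis) in each library, coloured by zone, with the dashed line at equal sums. The CZ and PZ libraries lie above the line, with ratios of 1.48 to 20.7, and the LP libraries lie below it, with ratios of 0.433 to 0.721.

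A wider list of 17 genes of leaf polarity and its small RNA pathway was drawn up by ID. It holds STM, CUC2, the YABBY genes and 13 further IDs, which are given no names here. Of the 17, 12 were tested, and between LP and CZ 1 was called higher (YABBY1) and 1 lower (STM), where 1.43% of all genes tested were called and 0.247% were called lower. In the other comparisons 0 were called by limma, against 0.321% of all genes for PZ with CZ and 0.148% for LP with PZ. Among the 13 further IDs, 8 were tested and 0 were called in any comparison, with log2 fold changes between LP and CZ of −0.94 to 0.60.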

How the data were processed

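The deposited table holds the authors' normalized counts, a signal in which each value is the reads of a gene divided by a factor of its library and rounded to 2 decimals. According to the methods and the submitters' processing notes, reads were aligned with Bowtie2 2.1.0 to the tomato genome SL2.50 with the chloroplast genome added, counted per gene by an HTSeq-based script, and DESeq2 1.4.0 was used for their tests. How the counts were normalized, and whether molecular identifiers were used to collapse reads, is not given in the sources used here. Each library had a smallest step of which all its values (100%) were whole multiples to within 0.0051, and this gave the reads. Members with similar sequence may share short reads, so their separate values are uncertain.

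The main test was limma 3.58.1 in R 4.3.3, with a variance trend, a pseudocount of 1 and zone as the only factor over all 9 libraries. The variance of a gene was thus moderated toward that of genes of like abundance. Fold changes on this scale understate those of genes with few reads. Steps were tested on simulated data. Alternatives were pseudocounts of 0.5 and 2, other filters or none, equal totals, TMM, edgeR 4.0.16, DESeq2 1.42.0, a replicate block, fits on the compared zones only, calls by adjusted p without a fold minimum and each library left out in turn; an unadjusted p was added after seeing the data. Exact tests used scipy 1.17.1 and figures matplotlib 3.10.9. Named are all members, STM, CUC2, YABBY1, YABBY3, the marker genes of green tissue, and the 3 genes most like the summed family and the 3 most like its most abundant member. The members and lists were chosen with earlier results of these data known. Every same-zone pair of libraries exceeded sampling noise (chi-square per degree of freedom 2.83 to 3.91). The reference gene table pairs none of these IDs with symbols.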

Additional observations from a re-analysis of the deposited data

How the results depend on the processing

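With every other pseudocount, filter, scaling, tool or design tried, 0 HD-ZIP III genes were called in each comparison; with the p unadjusted, which was added with the values known, it was 2 between LP and CZ and 1 between LP and PZ. With other scalings the summed levels stayed within 1 SD of the zone means, at 44.7, 28.8 and 21.7 in CZ, PZ and LP with equal totals and at 45.8, 28.0 and 22.0 with TMM. Leaving out 1 library gave 38.8 to 49.1, 27.5 to 32.8 and 18.3 to 23.7. With 3 libraries such a shift is always below 1 SD, so it is given as a range only. TMM scaling moved the median log2 fold change of all genes between PZ and CZ by −0.12. No sign turned except when 1 library was left out. Those ranges of log2 fold change were −0.85 to 0.16 for REVOLUTA between LP and CZ, −0.73 to 0.29 for PZ against CZ and −0.50 to 0.14 for LP against PZ, −0.35 to 0.053 for Solyc12g044410 between PZ and CZ, −0.53 to 0.27 for Solyc02g024070 and −0.053 to 0.67 for Solyc03g120910, both between LP and PZ. Between LP and CZ the signs of the other 4 tested members held throughout, with −1.77 to −0.88 for Solyc12g044410 and −1.71 to −0.94 for Solyc02g069830. The adjusted p of these stayed between 0.266 and 0.912 for the former and between 0.326 and 0.96 for the latter.

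Nothing in the sources says that a replicate number marks shared plants, and the numbers were not used as pairs in the main test. Deviations from the zone means correlated at 0.0272 to 0.112 for the 9 pairs of the same number and at −0.0958 to 0.0426 for the other 18. The correlations of the same number were thus small but all above 0, and what they come from was not tested. PZ1 correlated better with LP3 than with LP1, so not every library was closest to its own number. With the replicate block, 0 HD-ZIP III genes were called in each comparison, and over all genes 74 were called for LP against CZ, 20 for PZ against CZ and 11 for LP against PZ, against 58, 13 and 6 without it. Calls over all genes, used as the background, ranged from 24 to 74, from 2 to 29 and from 0 to 25 over these settings. For LP against CZ 26 were left without LP1 and 32 without CZ3; for PZ against CZ 7 without CZ1, 20 without CZ2, 6 without CZ3 and 3 without PZ2; and for LP against PZ 0 without LP1 and 4 without LP3.

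A tested member had 1 to 38 reads in a library. Variance beyond counting added to this for REVOLUTA, Solyc02g024070 and Solyc02g069830 (4.06, 2.30 and 2.16 times that of counting within zones). The standard errors of the log2 fold changes between LP and CZ were 0.50 to 0.63.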
